A study of Mus musculus with 9 samples.

Results

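The 6 genes described here, Tcf7, Lef1, Slamf6, Myb, Bcl6 and Satb1, are associated with stem-like T cells and with TCF1, the transcription factor that Tcf7 encodes. They were chosen by symbol from 37022 mouse genes with a matched row in the deposited tables, and each is represented by the transcript row whose gene-body signal had the largest mean over all libraries. The study measured nascent RNA in CD8+ T cells of the mouse, lymphocytes that kill infected or tumour cells, in relation to T cell exhaustion. Cells were given 0.2 mM 5-ethynyl uridine for 30 minutes, and the RNA made in that time was captured by its uridine analogue, copied to cDNA and sequenced. Each of 3 groups had 3 libraries: cells after acute stimulation, cells after chronic stimulation, and chronically stimulated cells treated to inhibit MEK, the kinase upstream of ERK. All 9 libraries are from CD8+ T cells. The mouse strain and age, the manner and length of stimulation, and the inhibitor are not given in the sources used here. No label says that replicates came from separate cultures or animals, so the p-values measure only the spread between these libraries, which may be technical.

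TCF1 and its close relative LEF1 bind DNA through an HMG box and can recruit β-catenin as an activator or Groucho (TLE) proteins as repressors. In CD8+ T cells facing persistent antigen, a stem-like fraction that expresses TCF1 and the surface receptor SLAMF6 renews itself and gives rise to more differentiated, exhausted cells. MYB and BCL6 are transcription factors linked to that fraction, and SATB1 organises chromatin in T cells and their precursors.

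Values are signal per transcript row, scaled between libraries by a trimmed mean of log ratios. They are given for the gene body, the transcribed stretch as the authors' table defines it, and for the pause region, the stretch near the transcription start. Fold changes are on a log2(signal + 5) scale, and a gene was called at an adjusted p below 0.05 in a limma model of all tested genes. Summed gene-body signal as deposited lay between 48601757 and 52216192 per library. Depth in reads is unknown. Correlations of log2 gene-body signal were 0.959 to 0.984 within groups and 0.910 to 0.954 between groups. A locus read here as ribosomal RNA took 19.1% to 22.3% of gene-body signal in acute, 34.2% to 40.6% in chronic and 29.0% to 36.1% in MEK-inhibited libraries. Leaving this locus out of the totals is one of the alternative scalings. Dusp6, an ERK-induced phosphatase that serves as the check on MEK, had 2379, 2315 and 2491 in chronic and 211, 208 and 193 in MEK-inhibited libraries, which is -3.52 on the log2 scale (SE 0.13, adjusted p = 5.23e-12).

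The promoters of 4 of the genes, chosen after the values were seen, are shown. Where the pause regions lie relative to their starts is not given in the sources used here. Each promoter window runs from 250 bases before to 30 bases into the RefSeq transcript of build GRCm38.p6, 5′ to 3′ on the gene's strand. The Tcf7 window is chr11:52282566-52282845 (minus strand), the Slamf6 window chr1:171917212-171917491 (plus), the Myb window chr10:21160955-21161234 (minus) and the Satb1 window chr17:51832618-51832897 (minus). The RefSeq starts lie 24, 53, 79 and 25 bases from the starts of the rows used for Tcf7, Slamf6, Myb and Satb1. Capitals mark matches to TCF/LEF (CTTTGA and also CTTTGT), ETS (CCGGAA) or MYB letters on either strand, the last being CAACTG and also CAACGG, and likewise TAACTG and then TAACGG.
Tcf7: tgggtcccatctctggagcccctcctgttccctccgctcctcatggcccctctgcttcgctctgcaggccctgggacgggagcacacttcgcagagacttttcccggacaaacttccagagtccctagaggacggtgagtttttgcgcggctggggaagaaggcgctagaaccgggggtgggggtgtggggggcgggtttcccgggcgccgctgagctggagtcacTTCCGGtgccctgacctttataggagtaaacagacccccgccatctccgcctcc
Slamf6: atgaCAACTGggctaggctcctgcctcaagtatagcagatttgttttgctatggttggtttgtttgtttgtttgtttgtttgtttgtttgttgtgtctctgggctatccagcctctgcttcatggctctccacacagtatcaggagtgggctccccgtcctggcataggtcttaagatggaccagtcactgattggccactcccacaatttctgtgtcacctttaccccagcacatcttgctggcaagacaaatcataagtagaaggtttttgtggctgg
Myb: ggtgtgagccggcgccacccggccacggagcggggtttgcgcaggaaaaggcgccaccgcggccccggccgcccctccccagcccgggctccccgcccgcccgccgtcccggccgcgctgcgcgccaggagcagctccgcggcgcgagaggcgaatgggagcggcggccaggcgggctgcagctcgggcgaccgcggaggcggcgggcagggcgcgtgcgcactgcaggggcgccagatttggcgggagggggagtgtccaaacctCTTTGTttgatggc
Satb1: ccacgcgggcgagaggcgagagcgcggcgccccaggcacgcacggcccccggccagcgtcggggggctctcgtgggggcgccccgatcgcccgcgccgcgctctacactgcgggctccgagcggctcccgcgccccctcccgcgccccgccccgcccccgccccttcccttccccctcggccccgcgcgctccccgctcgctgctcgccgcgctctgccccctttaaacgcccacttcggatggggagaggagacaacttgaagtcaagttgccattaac

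Positions are counted from +1 at the RefSeq start. The Tcf7 window holds an ETS match, read on the opposite strand, that begins at -24. A MYB match begins at -246 in Slamf6, and a TCF/LEF match begins at +17 in Myb. The Satb1 window holds none of these letters. Over the 15 RefSeq promoter windows of the 6 genes (300 bases each, some overlapping), TCF/LEF letters were in 5, MYB letters in 4, ETS letters in 3 and RUNX letters (TGTGGT) in 0. Of 32817 mouse promoter windows of that length, 31.2% held TCF/LEF, 28.3% MYB, 14.9% ETS and 16.8% RUNX letters. A RefSeq start inside Lef1, 42438 bases from the nearest start of a deposited row, has 3 TCF/LEF matches at -180, -146 and -120. A match in letters is not a binding site.

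The first comparison asks how nascent transcription differs between chronic and acute stimulation. Tcf7, Lef1, Slamf6 and Bcl6 were lower in chronic libraries, and Myb and Satb1 were higher. All 6 of 6 genes were called, 2 higher and 4 lower. Of all 15942 genes tested, 33.9% were called, 18.0% higher and 15.9% lower. The median log2 fold change was -0.66 over the 6 genes and -0.02 over all tested genes. None of the 6 had overlapping groups, a property that 44.2% of tested genes shared.

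**Figure D1:**
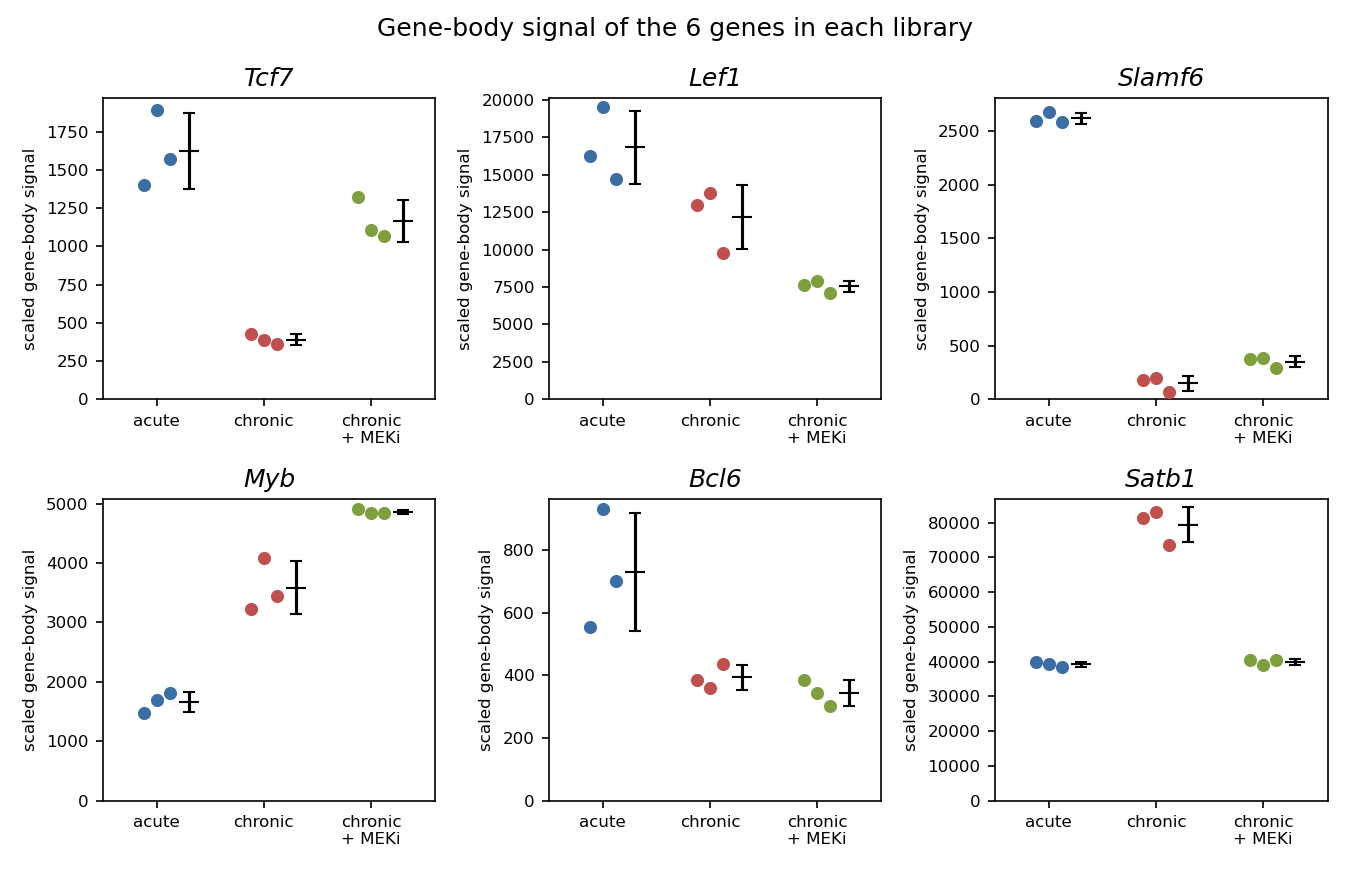
Scaled gene-body signal of the 6 genes; each point is 1 library, and the bar beside each group is the mean with its SD (n = 3). Chronic Satb1 libraries sit between 73643 and 83062, above all acute and MEK-inhibited libraries, whereas chronic Tcf7 libraries sit between 360 and 426, below all others.

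Tcf7 (chr11:52252371-52283014 of GRCm38, minus strand) encodes TCF1. Its gene-body signal was 1404, 1893 and 1574 in acute libraries and 426, 386 and 360 in chronic ones. Every chronic library was far below every acute library. The means were 1624 ± 248 and 391 ± 33.5 (SD, n = 3 each), which is -2.03 on the log2 scale (SE 0.15, adjusted p = 7.91e-09). Only 1.62% of tested genes had a lower value in this comparison.

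Lef1 (chr3:131110471-131224356, plus strand) encodes LEF1. Its signal was 16266, 19519 and 14720 in acute and 13015, 13761 and 9760 in chronic libraries. The groups did not overlap, but the highest chronic and lowest acute library were close. This is a log2 change of -0.47 (SE 0.12, adjusted p = 0.00645), and 22.4% of tested genes had a lower one. The call was lost in a model without intensity trend and robust moderation (adjusted p = 0.0633). Chronic library 3 was the lowest of its group, and without it the change was -0.32.

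Slamf6 (chr1:171917515-171953170, plus strand) encodes a homophilic receptor of the SLAM family. Acute libraries had 2592, 2677 and 2583, chronic libraries 179, 198 and 68.6. Acute libraries were nearly equal, and chronic library 3 was well below the other chronic libraries. On the log2 scale chronic was at -4.23 (SE 0.29, adjusted p = 1.34e-08), and 0.0941% of tested genes had a lower one.

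Bcl6 (chr16:23965052-23988852, minus strand) encodes a repressor that opposes Prdm1. It had 556, 932 and 703 in acute and 386, 359 and 437 in chronic libraries. All chronic libraries were below all acute ones, with a wide acute spread. The change was -0.85 (SE 0.21, adjusted p = 0.00376).

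Myb (chr10:21124935-21160984, minus strand) encodes the transcription factor c-Myb. Its signal was 1476, 1690 and 1816 in acute and 3217, 4079 and 3442 in chronic libraries. The lowest chronic library was well above the highest acute one. The log2 fold change was 1.1 (SE 0.11, adjusted p = 2.49e-07), higher than that of 93.0% of tested genes.

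Satb1 (chr17:51736187-51833290, minus strand) had 39882, 39331 and 38484 in acute and 81403, 83062 and 73643 in chronic libraries. The groups were far apart relative to their spread. Chronic against acute was at 1.01 on the log2 scale (SE 0.08, adjusted p = 1.29e-08). Per kilobase of row, Satb1 had the highest level of the 6 genes in each group, with means of 407 in acute, 823 in chronic and 413 in MEK-inhibited libraries. Lef1 had 148, 107 and 66.2 per kilobase in the same order. The other 4 genes lay between 30.7 and 73.4 in acute libraries. The lowest value of the 6 was that of Slamf6 in chronic libraries, 4.17 per kilobase.

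Scaling bears on the size of these changes. Scaling to library totals moved the median of all tested genes from -0.02 to -0.50, and the share of called genes that were higher from 53.2% to 13.8%. The direction and call of each of the 6 genes held, with Lef1 at -0.96, Bcl6 at -1.34, Myb at 0.61 and Satb1 at 0.52. On the scale as deposited, 14.5% of calls were higher, and without the ribosomal locus in the totals 35.8%.

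The second comparison asks what MEK inhibition changed under chronic stimulation. Tcf7, Slamf6 and Myb were higher in MEK-inhibited than in chronic libraries, Lef1 and Satb1 were lower, and Bcl6 was not called. Of the 6 genes, 5 were called, 3 higher and 2 lower, against 17.6% of all tested genes (9.93% higher, 7.65% lower). The median log2 fold change was 0.13 over the 6 genes and 0.04 over all genes. The same 5 genes had groups that did not overlap, as did 32.2% of tested genes. This comparison shares the chronic libraries with the first, so the values of the pair are given side by side and not as independent evidence.

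**Figure D2:**
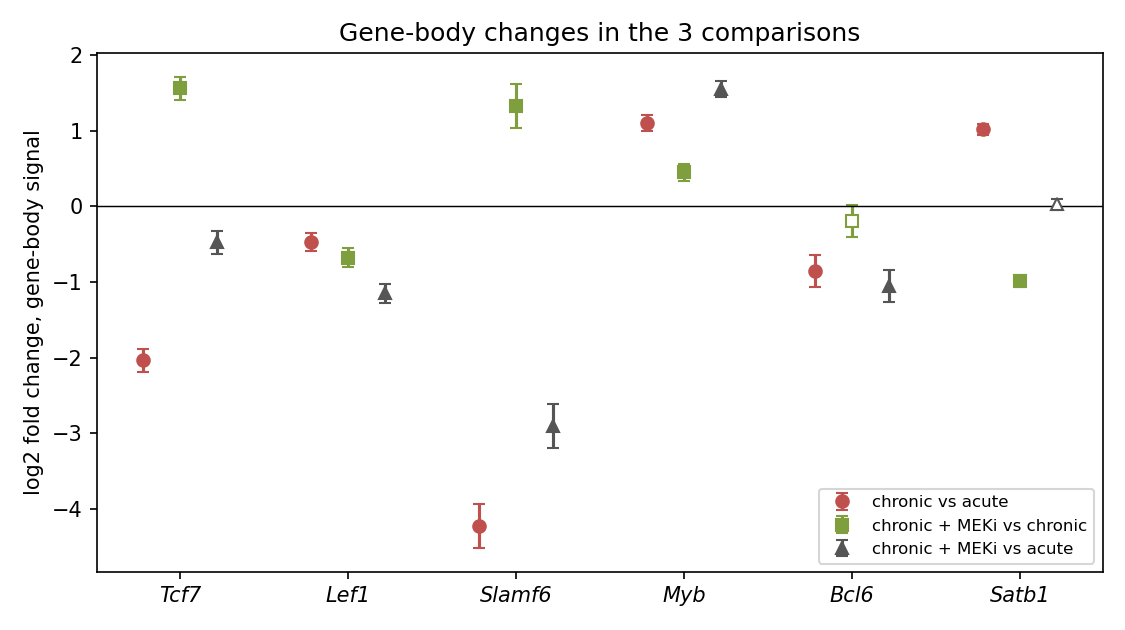
Log2 fold change of gene-body signal for the 6 genes in 3 comparisons, with its SE; filled symbols passed an adjusted p of 0.05 and open ones did not. Tcf7 and Slamf6 lie below 0 for chronic against acute and above 0 for MEK-inhibited against chronic, Satb1 has the opposite order, Lef1 is below 0 in all 3 and Myb above 0 in all 3.

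Tcf7 had 1323, 1104 and 1067 in MEK-inhibited libraries, a mean of 1165 ± 139 (SD, n = 3). All lay above the chronic libraries and below the acute ones. Against chronic the log2 fold change was 1.56 (SE 0.15, adjusted p = 6.58e-07), higher than that of 98.6% of tested genes.

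For Slamf6 the MEK-inhibited libraries had 371, 384 and 291, all above the chronic ones and far below the acute ones. Against chronic they were at 1.32 (SE 0.29, adjusted p = 0.00449). Without chronic library 3 it was 0.86 and still called.

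Myb had 4901, 4836 and 4841 in MEK-inhibited libraries, which were nearly equal and above all chronic libraries. Their log2 fold change was 0.45 (SE 0.11, adjusted p = 0.00656). It was not called without the filter on low signal (adjusted p = 0.174), without trend and robust moderation (0.0542) or without MEK-inhibited library 1 (0.0571).

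Satb1 had 40410, 38866 and 40368 in MEK-inhibited libraries, overlapping the acute range and well below the chronic libraries. Its log2 fold change against chronic was -0.99 (SE 0.08, adjusted p = 5.03e-08), and 3.53% of tested genes had a lower one.

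Lef1 had 7615, 7873 and 7132 in MEK-inhibited libraries, below every chronic and every acute library. Relative to chronic the change was -0.68 (SE 0.12, adjusted p = 0.000746). Lef1 and Tcf7, the closest relatives among the 6, thus had opposite signs in this comparison.

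Bcl6 had 385, 345 and 302 in MEK-inhibited libraries, which overlapped the chronic range. Here the change was -0.19 (SE 0.21, adjusted p = 0.615).

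The third comparison sets MEK-inhibited against acute libraries and shares libraries with both others. Of the 6 genes, 5 were called, Myb higher and Tcf7, Lef1, Slamf6 and Bcl6 lower, against 25.8% of tested genes (14.4% higher, 11.5% lower). The median log2 fold change was -0.76 over the 6 genes and 0.00 over all genes. Groups did not overlap for the same 5 genes and for 42.0% of tested genes.

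Tcf7 was at -0.47 (SE 0.15, adjusted p = 0.0295). That call was lost without the filter (adjusted p = 0.113), without trend and robust moderation (0.0568), and without acute library 2 (0.0772), MEK-inhibited library 2 (0.0793) or MEK-inhibited library 3 (0.117). With library totals it was -0.86. Slamf6 was at -2.90 (adjusted p = 1.87e-06), Lef1 at -1.15 (2.31e-06) and Bcl6 at -1.05 (0.00100). Each of these 3 genes was lower in every MEK-inhibited than in every acute library. Myb was at 1.55 (adjusted p = 6.65e-09), with every MEK-inhibited library above every acute one.

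Satb1 was at 0.02 (SE 0.08, adjusted p = 0.867), and its MEK-inhibited and acute libraries overlapped. This near-equality depended on the scaling. Satb1 was at -0.36 with library totals (adjusted p = 0.0288), at -0.32 on the deposited scale (0.0489) and at -0.15 without the ribosomal locus in the totals (0.236).

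The order of group levels therefore took several forms among the 6 genes. For Tcf7 and Slamf6 it ran from chronic to MEK-inhibited to acute. Lef1 ran from MEK-inhibited to chronic to acute, and Myb from acute to chronic to MEK-inhibited. In Bcl6 the chronic and MEK-inhibited levels did not differ beyond their spread. In Satb1 the acute and MEK-inhibited levels did not with the main scaling, but they did with library totals and on the deposited scale.

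The pause region gave fewer calls on weaker signal. Lef1, Slamf6, Myb and Satb1 passed the filter (signal of 50 or more in 3 or more libraries), Slamf6 through its acute libraries alone, and Tcf7 and Bcl6 did not. Lef1 would not have passed without its acute libraries, since only chronic library 1 and MEK-inhibited library 2 reached 50 besides them. Its comparisons with acute libraries are therefore not independent of the filter. Between chronic and acute libraries 3 of these 4 genes were called, Slamf6 lower and Myb and Satb1 higher, against 10.7% of 7678 tested genes (5.37% higher, 5.35% lower). In all 4 the groups were apart, as in 24.3% of tested genes. Slamf6 had to differ in this comparison given how it passed. The calls became 1 of 4 genes on the deposited scale, 1 of the 3 genes tested without acute library 3, 1 of 6 without the filter and 1 of 1 with a filter of 200.

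At the start of the Satb1 row, signal was 290, 288 and 258 in acute, 618, 444 and 525 in chronic and 306, 350 and 270 in MEK-inhibited libraries. Chronic libraries were above all others. The log2 fold change was 0.90 between chronic and acute (SE 0.21, adjusted p = 0.00455). That call was lost with library totals (0.30, adjusted p = 0.449), on the deposited scale (0.0662), without the filter (0.0502) and without trend and robust moderation (0.0553). Between MEK-inhibited and chronic libraries the change was -0.76 (adjusted p = 0.0422). Satb1 was the only one of the 4 called between MEK-inhibited and chronic libraries, where 3.0% of tested genes were called (1.56% higher, 1.43% lower), and it alone had groups apart, as 20.2% of tested genes did. The latter call was lost under 11 of 20 alternatives, including each that left out a chronic or MEK-inhibited library.

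At the Myb start, signal was 94.5, 93.8 and 64.2 in acute, 157, 158 and 216 in chronic and 209, 228 and 171 in MEK-inhibited libraries. Acute libraries were below all others, and the other groups overlapped. The log2 fold change was 1.03 between chronic and acute (adjusted p = 0.0197) and 1.23 between MEK-inhibited and acute (adjusted p = 0.00888). The first call was lost under 6 of 19 alternatives that tested Myb, among them library totals (0.45, adjusted p = 0.356) and leaving out acute library 3 (0.0771) or chronic library 3 (0.0995). The second was lost under 3, which were library totals (0.90, adjusted p = 0.110), no filter (0.0899) and leaving out MEK-inhibited library 2 (0.0670).

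At the Lef1 start, signal was 139, 110 and 126 in acute, 97.3, 21 and 45.3 in chronic and 33.0, 55.2 and 19.1 in MEK-inhibited libraries. Acute libraries were the highest. The change was -1.34 between chronic and acute, which did not pass (adjusted p = 0.0742), and -1.77 between MEK-inhibited and acute (adjusted p = 0.0239). Lef1 and Myb were the 2 of 4 genes called in that last comparison, where 5.95% of tested genes were called (3.44% higher, 2.51% lower). Groups did not overlap for 3 of the 4 and for 24.7% of tested genes. But 1 of the 3 was Slamf6, which passed the filter through its acute libraries alone and so had to differ here too. Lef1, another of the 3, also needed its acute libraries to pass, so its call here is not independent of the filter. The 2 calls became 1 when acute library 1 or 3 was left out, with 3 genes tested, and when any MEK-inhibited library was left out, with 4 tested.

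At the Slamf6 start, signal was 86.5, 70.6 and 90.9 in acute, 12.6, 0 and 1.01 in chronic and 34.3, 36.3 and 6.70 in MEK-inhibited libraries. Chronic and MEK-inhibited libraries overlapped and were below all acute ones. The weak starts of Tcf7 and Bcl6 reached at most 40.2 and 55.6.

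The difference between pause-region and gene-body change was tested per gene and gave 0 calls among the 4 genes and 0 among 7413 tested genes in each comparison (limma). At an unadjusted p below 0.05 there were 749, 394 and 591 genes, in the order in which the comparisons are given above. Among the 4 genes there were 0, 0 and 1, the last being Slamf6 at 1.19 (unadjusted p = 0.0452). Slamf6 passed the pause-region filter through its acute libraries alone, so this value is not independent of the filter and nothing is drawn from it.

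The deposited rows of each gene allow a look at separate starts. These overlap, so they are not independent and were not tested. Over all genes tested in the pause region, at 1 row each, groups were apart in 24.3% between chronic and acute. Between MEK-inhibited and chronic libraries it was 20.2%. Satb1 has 14 rows from 12 starts, and pause-region signal was higher in chronic than acute libraries at all 12 (log2 fold change 0.56 to 1.51), with groups apart at 9. At the same 12 starts it was lower in MEK-inhibited than chronic libraries (-1.68 to -0.73), with groups apart at all 12. The strongest Satb1 start had a mean of 1300 in chronic, 653 in acute and 694 in MEK-inhibited libraries. Gene-body changes over the 14 Satb1 rows were 0.99 to 1.20 for chronic against acute.

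Lef1 has 5 distinct starts, and mean signal was lower in chronic than acute libraries at all 5 (-1.34 to -0.33), with groups apart at 3. It was lower again in MEK-inhibited than chronic libraries at all 5 (-0.82 to -0.43), with groups apart at 2. The 7 Slamf6 starts were all lower in chronic than acute libraries (-3.47 to -2.61), with groups apart at all 7. Between MEK-inhibited and chronic libraries they were at 0.48 to 1.72, with groups apart at only 1. Gene-body changes over the 7 Slamf6 rows were -0.24 to 1.32 there, with groups apart at 3, as in 32.2% of tested genes. At the 5 Myb starts the change between chronic and acute was 0.27 to 1.04, with groups apart at 3. Between MEK-inhibited and chronic libraries it was 0.13 to 0.32, with groups apart at 0. Of the Myb-201 row, the shorter Myb-202 row covers 61.5% of the length at the 5′ end and held 78.4% ± 2.98 of the gene-body signal in acute, 77.0% ± 1.28 in chronic and 74.0% ± 1.66 in MEK-inhibited libraries (SD, n = 3).

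**Figure D3:**
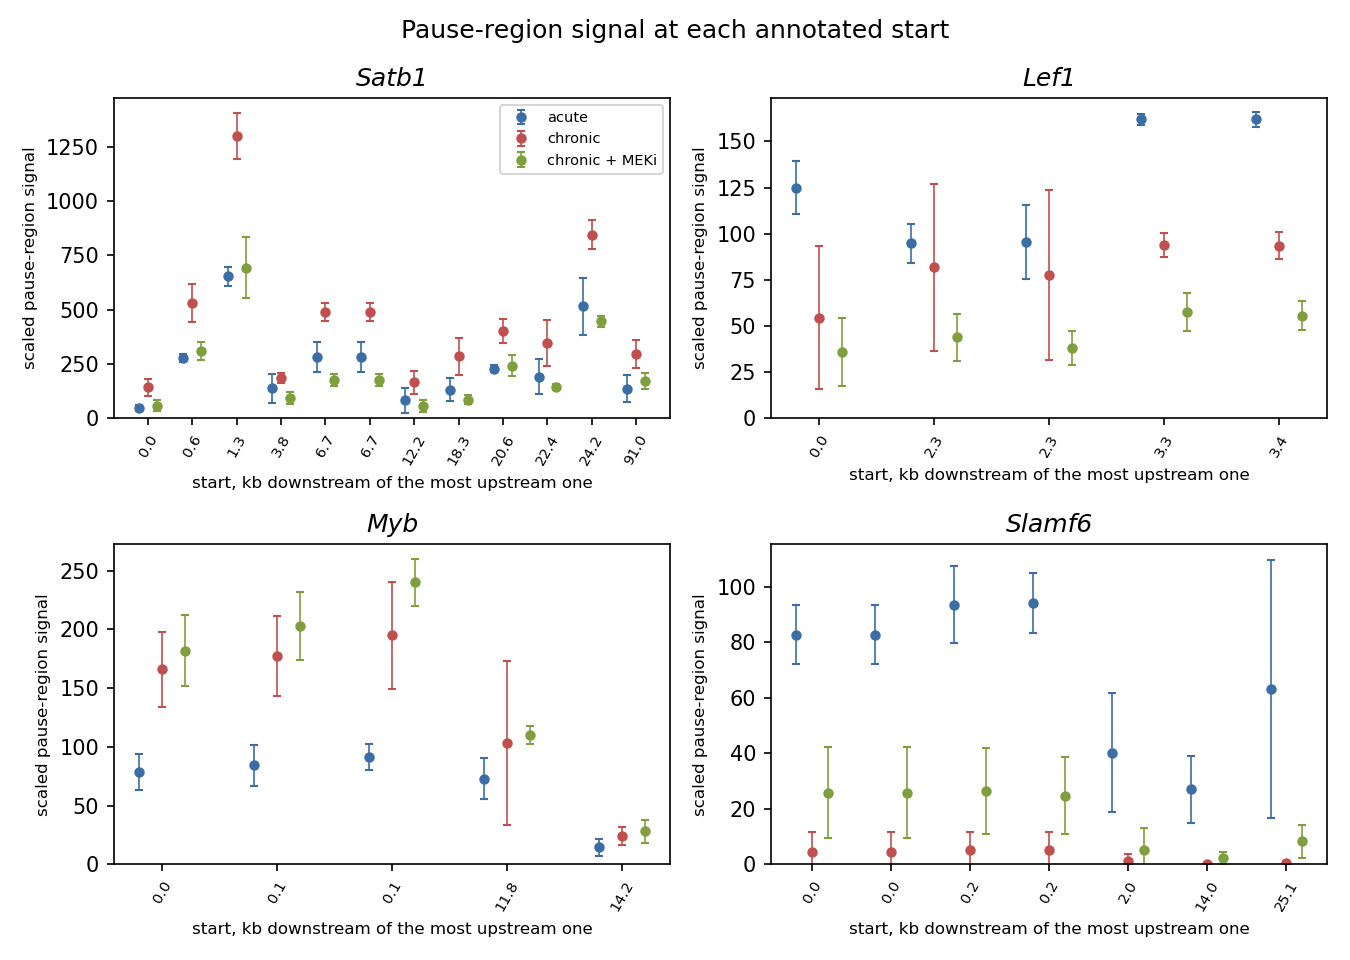
Scaled pause-region signal at each annotated start of Satb1, Lef1, Myb and Slamf6, ordered by distance from the most upstream start; points are group means and bars SDs (n = 3 libraries). Chronic Satb1 means are the highest at all 12 starts, and acute Lef1 and Slamf6 means are the highest at all 5 and 7 starts.

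Other annotated genes lie within these loci, and whether strand was used in counting is not given in the sources used here, so their signal cannot be told apart from that of the 6 genes. A630014C17Rik, antisense to Tcf7, covers 21.6% of the Tcf7 row. It was at -2.42 between chronic and acute and 1.94 between MEK-inhibited and chronic libraries, with the same signs as Tcf7. The lincRNA Gm26551 on the Tcf7 strand covers 56.8% of that row and was not analysed here. Gm26577, antisense inside Myb, covers 25.8% of the Myb row and had 52.5, 106 and 137 per kilobase in acute, chronic and MEK-inhibited libraries, close to the 46.2, 99.5 and 135 of Myb. Gm37065, antisense to Slamf6, covers 5.2% of the Slamf6 row. Gm43352 and Gm42449 cover 1.4% and 2.0% of the Lef1 row, and Gm37419 covers 0.5% of the Bcl6 row. On the Satb1 strand, E430014B02Rik, C230085N15Rik, Gm36931, 5830444F18Rik and Gm37248 cover 3.3%, 4.5%, 5.0%, 2.1% and 3.3% of the Satb1 row. These were at 0.79 to 0.95 between chronic and acute and at -1.02 to -0.84 between MEK-inhibited and chronic libraries, with the signs of Satb1.

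The nearest tested protein-coding gene on each side of the 6 genes was compared. Genes farther away, including the SLAM family genes described below, were not placed by position. Whether a wider neighbourhood moved was therefore not examined. Skp1a, 5.5 kb from Tcf7, was at -0.52 between chronic and acute (adjusted p = 0.00462) and 0.14 between MEK-inhibited and chronic libraries (0.541), smaller than Tcf7 in both. Between MEK-inhibited and acute libraries Skp1a was called at -0.37 (adjusted p = 0.0415), near the -0.47 of Tcf7 (0.0295). Hadh, 9.1 kb from Lef1, was at 0.99 and -0.68 (adjusted p = 0.000174 and 0.00869), so between chronic and acute it had the opposite sign to Lef1. Between MEK-inhibited and chronic libraries Hadh had the same sign and size as Lef1, which was also at -0.68. Hbs1l, 135.0 kb from Myb, was at 0.05 (adjusted p = 0.700). Tbc1d5, 557.0 kb from Satb1, was at 0.39 (adjusted p = 0.0170). Rtp4, 350.8 kb from Bcl6, was at -1.87 (adjusted p = 0.00504), below the -0.85 of Bcl6. Vdac1, Rpl34, Gm10521, Vangl2, Ahi1, Lpp and Kcnh8, the other neighbours, were not called between chronic and acute. Of these Lpp, 404.7 kb from Bcl6, was at -0.81 between MEK-inhibited and chronic libraries (adjusted p = 6.58e-06). Against acute, MEK-inhibited libraries were at -0.87 for Lpp (1.99e-06) and at -1.03 for Gm10521 (0.0255), 19.3 kb from Slamf6. The rest of these were not called in any comparison. Among them Vangl2, on the other side of Slamf6, had weak signal, with means of 36.3 in acute, 62.9 in chronic and 34.0 in MEK-inhibited libraries.

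Genes linked to stem-like, memory or naive T cells other than the 6 were mostly lower in chronic libraries. Of 19 genes 18 were tested, and 10 fell and 1 rose between chronic and acute (median -0.96, all genes -0.02). The counts of this and the following lists stand beside these shares of all tested genes. Between chronic and acute 18.0% were called higher and 15.9% lower. Between MEK-inhibited and chronic libraries it was 9.93% and 7.65% (median 0.04). For MEK-inhibited against acute it was 14.4% and 11.5% (median 0.00). Nsg2 changed by -4.30, Ltb, which encodes lymphotoxin beta, by -3.86, and S1pr1, the receptor for lymphoid egress, by -3.77. The 1 that rose was Il7r, the interleukin-7 receptor (0.88), named after its value was seen. Between MEK-inhibited and chronic libraries 9 rose and 3 fell (median 0.68). Id3, an inhibitor of E proteins, rose by 2.90, Ltb by 2.52 and the transcription factor gene Klf2 by 2.41. The 3 that fell, also named after their values were seen, were Il6ra (-1.77), Il7r (-1.01) and Bach2 (-0.57). Between MEK-inhibited and acute libraries 1 rose and 8 fell (median -0.33). S1pr1 was at -2.42, Nsg2 at -1.93 and Dapl1, the 1 that rose, at 2.36. With library totals that last count was 1 higher and 14 lower.

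For cofactors of TCF1 and LEF1 and other Wnt pathway genes the median changes were smaller. Of 19 genes with a row 16 were tested, and 1 rose and 9 fell between chronic and acute (median -0.29). The 9 became 5 without the filter and without trend and robust moderation. The co-activator Bcl9l fell by 1.53, the co-repressor Tle3 fell by 0.63, and the co-activator Pygo2 rose by 0.89, a call lost with library totals (adjusted p = 0.110) and on the deposited scale (0.0952). Between MEK-inhibited and chronic libraries 7 rose and 0 fell (median 0.29). Bcl9l rose by 1.5, Ctnnbip1, an inhibitor of β-catenin, by 0.83 and the Groucho relative Aes by 0.79. The 7 became 4 without the filter and without any 1 of chronic library 3 and MEK-inhibited libraries 1 and 2. In each of these Ctnnbip1 was not called (adjusted p = 0.101, 0.0544, 0.109 and 0.0518). Between MEK-inhibited and acute libraries 4 rose and 1 fell, but with library totals 1 rose and 5 fell, so the direction of the list depended on the scaling. In that comparison Ctnnbip1 was at 1.1, Tle1 at 0.57 and Pygo2 at 0.55, and the calls of Tle1 and Pygo2 were lost with library totals. Axin2, a feedback target of Wnt signalling singled out after its values were seen, had 3868, 11126 and 914 in acute, 5492, 10979 and 4637 in chronic and 3319, 2380 and 17044 in MEK-inhibited libraries. Its spread within each group was larger than any difference between groups (adjusted p = 0.575 for chronic against acute).

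Relatives of the 6 genes divided by family. Of 14 with a row 11 were tested, and 2 rose and 6 fell between chronic and acute (median -0.79). The number that rose is near the 18.0% of all tested genes that did, whereas 15.9% of all tested genes fell. The 2 that rose were the Myb relatives Mybl2 (1.86) and Mybl1 (1.56), the same direction as Myb. All 6 that fell were SLAM family genes, like Slamf6, and Ly9 was at -1.37. Between MEK-inhibited and chronic libraries 3 rose and 0 fell, Mybl1 by 1.00, Ly9 by 0.54 and Slamf7 by 0.45. Without MEK-inhibited library 1 the count was 1, with Ly9 (adjusted p = 0.0966) and Slamf7 (0.0897) not called. Without the filter 1 rose and 1 fell, and again neither Ly9 (0.19) nor Slamf7 (0.152) was called. Between MEK-inhibited and acute libraries 2 rose and 6 fell, with Mybl1 at 2.56, Mybl2 at 1.98 and Cd84 at -1.13. Of all tested genes 14.4% rose here, again near the number of relatives that did, and 11.5% fell. Tcf7l1 and Tcf7l2, the other TCF genes, were not called in any comparison.

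Genes of terminal or effector differentiation were mostly higher in chronic libraries. Of 16 genes with a row 15 were tested, and 9 rose and 3 fell between chronic and acute (median 0.54). Havcr2, which encodes TIM-3, rose by 4.73, Prf1, which encodes perforin, by 4.52 and Prdm1, which encodes BLIMP1, by 2.80. The 3 that fell, named after their values were seen, were Tox (-1.54), Cd244a (-0.98) and Tbx21 (-0.27). With library totals 6 rose and 5 fell. Between MEK-inhibited and chronic libraries 2 rose and 7 fell (median -0.34), with Havcr2 at -3.35, Prf1 at -2.72 and the repressor Zeb2 at -1.89. The 2 that rose, also named after their values were seen, were Tbx21 (1.46) and Runx3 (0.86). Their number is near the 9.93% of all tested genes that were higher. The 2 became 1 without the filter and without chronic library 3. Between MEK-inhibited and acute libraries 9 rose and 3 fell (median 0.50), and with library totals 4 rose and 5 fell. Prf1 was at 1.81, Havcr2 at 1.38 and Tbx21, which encodes T-bet, at 1.19.

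**Figure D4:**
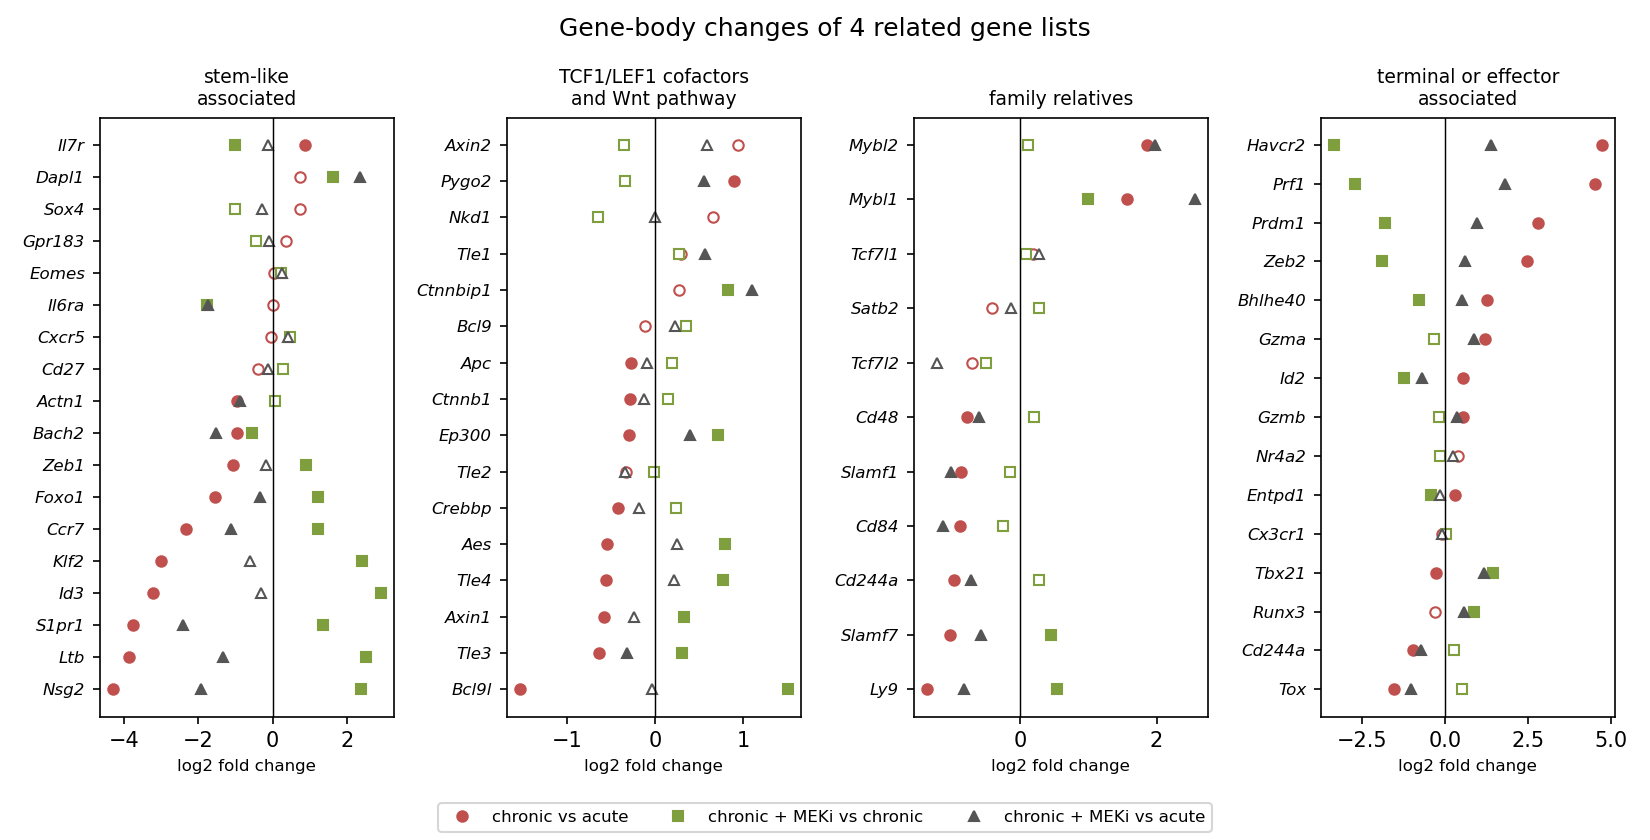
Log2 fold change of gene-body signal for each tested gene of 4 related lists in 3 comparisons; filled symbols passed an adjusted p of 0.05 and open ones did not. Most stem-like genes lie left of 0 for chronic against acute and Havcr2, Prf1, Prdm1 and Zeb2 lie far right of it, with MEK-inhibited against chronic on the other side for those 4.

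Markers of cell types were measured in the same libraries. In bulk libraries fewer cells of a type and less RNA per cell cannot be told apart. All 7 CD8 T cell markers were tested, and their summed gene-body signal was 28156 to 31974 in acute, 17922 to 21667 in chronic and 24036 to 26645 in MEK-inhibited libraries. Cd8a itself changed by -2.07 between chronic and acute and 1.58 between MEK-inhibited and chronic, near the -2.03 and 1.56 of Tcf7. It was singled out of the 7 after its values were seen. Between chronic and acute Cd3e, Cd247, Cd8b1 and Trac were at -0.50, -0.48, -0.60 and -0.43 and were called, whereas Cd3d (-0.04, adjusted p = 0.856) and Cd3g (0.09, 0.598) were not. The 6 B cell markers summed to 701 to 859, 401 to 462 and 254 to 700 in the same order of groups, with Ms4a1 at most 24.5. Of these Cd79a had means of 335, 106 and 153, and was called at -1.69 between chronic and acute (adjusted p = 0.00225) and at -1.22 between MEK-inhibited and acute (0.0261), with the signs of Tcf7 and Slamf6. The 8 myeloid markers summed to 385 to 660, 617 to 1650 and 460 to 773, with Lyz2 at most 8.49. Fcgr3, the highest of them in every library, was at 179 to 500, 512 to 1466 and 362 to 561, and was called at 1.79 between chronic and acute (adjusted p = 0.0102). The 5 NK cell markers summed to 1288 to 1442, 995 to 1864 and 1580 to 1695, nearly all of it Eomes, which CD8+ T cells also express, with Ncr1 at most 6.4. The 2 CD4 T cell markers with a row, Cd4 and Zbtb7b, summed to 1040 to 1367, 1054 to 1383 and 1729 to 2016, but between MEK-inhibited and acute libraries they moved in opposite directions. Cd4 had means of 442, 234 and 116 and was at -1.89 (adjusted p = 0.000119). Zbtb7b had 789, 1002 and 1769 and was at 1.17 (7.41e-06). The 4 erythroid markers with a row summed to at most 46.7. The part of such shifts in the changes of the 6 genes was not tested.

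Genes most like each of the 6 were taken by Pearson's r of scaled log2 gene-body signal over the 9 libraries, which share 3 groups, so r reflects the group pattern and is a description only. For Tcf7 they were Ifnar1 (0.997), Mov10 (0.995) and H2-Q7 (0.995). For Slamf6 they were Pik3c2a (0.998), Inpp4b (0.997) and Themis (0.996). Those of Satb1 were Sytl2 (0.995), Adarb1 (0.992) and Rbpj (0.991). Those of Myb were Sgo1 (0.993), E2f7 (0.992) and Cdkn1a (0.990). Lef1 was most like Slc17a9 (0.987), Polr3b (0.982) and Klk9 (0.982), and Bcl6 most like Acp5 (0.992), Sec24c (0.965) and Pfdn2 (0.959).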

How the data were processed

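Nascent RNA libraries of 9 samples, 3 per group, were compared. The authors deposited signal per transcript in a gene-body and a pause-region table. Per the submitters' processing notes, FastQC 0.12.0, Trim Galore 0.6.10, STAR 2.7.0a, SAMtools 1.19.2, deepTools 0.1.9 and R 4.1.2 were used with build mm10. Region coordinates, annotation, counting and use of strand are not given in the sources used here. Low values were whole multiples of a step per library. Whether a step was a read is not known, so the signal was not treated as read counts and depth is unknown.

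Of 118482 rows, 117346 matched GENCODE M21 (GRCm38) transcripts with their version and 383 without it, and 753 were left out. Per gene, the row whose gene-body signal had the largest mean was used. Tested genes had a signal of 50 or more in 3 or more libraries. Libraries were scaled within each table by unweighted TMM, trimming 30% of log ratios and 5% of mean levels. One limma model (limma 3.58.1, R 4.3.3) with trend and robust moderation was fitted to log2(signal + 5) of the 9 libraries. P-values were adjusted by Benjamini and Hochberg over all genes tested. The model was checked on simulated data. Python 3.11.15 with pandas 2.3.3 joined the tables. Promoter windows are from RefSeq, which matched all 6 genes.

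The 6 genes and the 4 lists were chosen with earlier results of these data known. From each list and comparison, up to 3 called genes with the largest changes and groups that did not overlap were named, and per gene the 3 genes most like it. The neighbouring genes, the motifs, the promoters shown and the nested rows were chosen after the values were seen. A total of 20 alternatives was tried: 3 other scalings, pseudocounts of 0.5 and 20, no filter, a filter of 200, only the groups compared, no trend or robust moderation, the longest row, a replicate block and each library left out. Genes on the sex chromosomes were not analysed here. Of the planned gene and marker lists, 2 genes are not reported here and were left out of the lists' counts, medians and sums.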

Additional observations from a re-analysis of the deposited data

How the results depend on the processing

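Gene-body calls were 6, 5 and 5 of 6, in the order of the report's comparisons. With each library left out they ranged over 6 to 6, 4 to 5 and 4 to 5. Deviations from the group means were correlated between same-numbered libraries. The correlations were 0.0747 to 0.0979, -0.153 to 0.0905 and -0.533 to -0.011, in the same order of comparisons. They cannot show whether replicates were paired. A replicate block left the gene-body counts at 6, 5 and 5 and the pause-region counts at 3, 1 and 2. The directions of the 6 gene-body changes between chronic and acute and between MEK-inhibited and chronic libraries held under all 20 alternatives. Depth in reads is unknown, so no counting error can be given, and the pause region is limited by weak signal.

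Pause-region calls were less stable. From 3, chronic against acute gave 1 on the deposited scale, 1 of 6 tested without a filter, 1 of 1 tested with a filter of 200, and 1 to 4 with each library left out. From 2, MEK-inhibited against acute gave 1 with library totals and without trend, 0 without a filter and with a filter of 200, and 1 to 2 with each library left out. From 1, MEK-inhibited against chronic gave 0 with each of the 3 other scalings, without a filter and without trend, and 0 to 1 with each library left out. The pause-minus-gene-body difference between chronic and acute gave 1 call with a pseudocount of 20, from 0. The cause of these moves was not tested.

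Signs turned only for changes that were not called with the settings of the report. For Satb1, MEK-inhibited against acute, the gene body was at -0.36 with library totals, -0.32 as deposited, -0.15 without the ribosomal locus and -0.039 without a filter, and -0.048 to 0.030 with each library left out; its pause region was at -0.20 with library totals. For pause region minus gene body, chronic against acute, Myb was at 0.32 as deposited, 0.19 without the ribosomal locus and -0.31 to 0.10 with each library left out, Satb1 at 0.28, 0.15 and -0.21 to 0.034, and Slamf6 at -0.996 with a pseudocount of 0.5. For MEK-inhibited against acute Myb was at 0.14 as deposited. For MEK-inhibited against chronic Slamf6 was at -0.36 with a pseudocount of 20 and -0.20 to 0.88 with each library left out, and Lef1 at -0.33 to 0.70, while its pause region was at -0.91 to 0.073. The cause was not tested.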
